A study of Rattus norvegicus with 24 samples.

Results

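The oligodendrocyte lineage was read in these cultures through 9 marker genes, chosen by name: the transcription factors Olig1, Olig2 and Sox10, the progenitor surface proteins Pdgfra and Cspg4, and the myelin genes Mbp, Cnp, Mog and Mag. All 9 were found among the 32883 genes listed, and the value of a gene is its FPKM (a fragment count corrected for transcript length and for the size of the library) summed over its transcripts. The RNA came from primary striatal neurons of neonatal rats at day 7 in vitro. Cultures received SKF, an agonist of the D1 dopamine receptor, a drug that blocks bromodomains (protein pockets that read acetylated lysines on histones), or both. Experiment 1 had SKF+JQ1, JQ1, SKF and DMSO vehicle groups at 60 min, experiment 2 had SKF+iBD2, iBD2, SKF and DMSO groups at 60 min, and experiment 3 had SKF+JQ1, JQ1, SKF and DMSO groups at 24 h. JQ1 inhibits the BET family of bromodomain proteins. The labels give no doses and no genotype other than the species. Each of the 12 groups had 2 libraries, numbered N5 and N6 in experiments 1 and 3 and N1 and N2 in experiment 2, except SKF+iBD2, of which 1 of 2 was analysed here. That made 23 libraries of 24 samples. Nothing in the labels says whether replicates were grown apart, so the p-values given here reflect only the variation among these libraries, and that variation may be technical.

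Oligodendrocytes wrap axons of the central nervous system in myelin. They arise from progenitors that carry PDGFRA, the receptor for platelet-derived growth factor, and the proteoglycan NG2, the product of Cspg4. OLIG2 and SOX10 specify and maintain the lineage, OLIG1 acts beside them, and the myelin genes come up as progenitors stop dividing and mature. Olig1 and Olig2 RNA is also found in some astrocyte precursors, and Pdgfra and Cspg4 RNA in fibroblasts and pericytes, so no member marks the lineage alone in a mixed culture.

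On the rat build Rnor_6.0, as in the files, Olig2 (ENSRNOG00000028658, chr11:31389514-31392890, plus strand) and Olig1 (ENSRNOG00000028648, chr11:31428358-31430517, plus strand) are neighbours with 35468 bases between them. Mbp (ENSRNOG00000016516) spans chr18:79326738-79437310 on the plus strand and has 5 annotated transcripts that begin at 2 positions, which is taken up below. Sox10 (ENSRNOG00000011305) lies at chr7:120393254-120403523 and Pdgfra (ENSRNOG00000002244) at chr14:35527927-35581031, both on the minus strand. Cspg4 (ENSRNOG00000017208) lies at chr8:61532465-61567510 and Cnp (ENSRNOG00000017496) at chr10:88490798-88497356, both on the plus strand. Mag (ENSRNOG00000021023, chr1:89345429-89360733, minus strand) has 2 transcripts, and the other 7 members have 1 each. Gene values here are sums over whole genes, exons of all transcripts together. The last 117 bases of Mog (ENSRNOG00000000775, chr20:2004052-2014286, plus strand) overlap Zfp57 on the other strand. The sources used here do not give whether the counting used strand, so reads of the shared bases could fall to either gene. Sox10, Pdgfra and Mbp overlap genes whose highest level in any library was 0.234 FPKM.

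Promoter sequences from RefSeq on build GRCr8 were found for 6 of the 9 members. Those shown are of Olig2, which rose with JQ1 at 24 h, of Cspg4 and Mag, which fell, and of both Mbp starts, whose transcripts are given apart further on. Each sequence runs 5′ to 3′ over 300 bases, from 250 before the annotated start to 50 after it. Capitals mark the E-box CANNTG, the letters that basic helix-loop-helix factors such as OLIG1 and OLIG2 bind. The motif reads the same on both strands.
Olig2 (chr11:43961335-43961634, plus strand): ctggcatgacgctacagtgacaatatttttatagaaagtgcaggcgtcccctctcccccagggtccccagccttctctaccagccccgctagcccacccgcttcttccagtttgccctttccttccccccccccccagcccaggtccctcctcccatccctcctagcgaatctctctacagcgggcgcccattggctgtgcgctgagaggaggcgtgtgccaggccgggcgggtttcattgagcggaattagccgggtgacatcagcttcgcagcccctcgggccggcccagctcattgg
Cspg4 (chr8:66160692-66160991, plus strand): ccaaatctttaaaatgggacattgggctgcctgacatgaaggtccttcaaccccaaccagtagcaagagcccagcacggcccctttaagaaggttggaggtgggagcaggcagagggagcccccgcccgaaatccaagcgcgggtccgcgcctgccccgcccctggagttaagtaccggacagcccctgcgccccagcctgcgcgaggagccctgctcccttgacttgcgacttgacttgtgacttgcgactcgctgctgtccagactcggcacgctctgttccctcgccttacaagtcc
Mag (chr1:95290995-95291294, minus strand): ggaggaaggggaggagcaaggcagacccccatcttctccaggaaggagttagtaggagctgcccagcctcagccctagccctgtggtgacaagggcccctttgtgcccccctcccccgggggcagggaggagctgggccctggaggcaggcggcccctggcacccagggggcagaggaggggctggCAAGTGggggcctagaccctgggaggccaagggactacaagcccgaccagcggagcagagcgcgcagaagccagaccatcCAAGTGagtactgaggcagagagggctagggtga
Mbp, upstream start (chr18:78130402-78130701, plus strand): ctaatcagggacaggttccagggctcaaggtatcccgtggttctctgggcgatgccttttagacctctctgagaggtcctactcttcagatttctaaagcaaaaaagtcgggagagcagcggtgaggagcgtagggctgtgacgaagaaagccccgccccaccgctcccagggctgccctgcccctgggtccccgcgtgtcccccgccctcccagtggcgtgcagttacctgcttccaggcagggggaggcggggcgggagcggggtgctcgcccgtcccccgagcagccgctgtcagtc
Mbp, downstream start (chr18:78209995-78210294, plus strand): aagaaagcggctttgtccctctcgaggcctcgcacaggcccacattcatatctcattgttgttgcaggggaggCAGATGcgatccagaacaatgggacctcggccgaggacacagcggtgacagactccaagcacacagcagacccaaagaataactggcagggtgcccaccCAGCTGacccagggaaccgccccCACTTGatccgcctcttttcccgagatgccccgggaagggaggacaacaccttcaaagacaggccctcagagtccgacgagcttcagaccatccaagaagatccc
The Mag window held 2 E-boxes and the downstream Mbp window 3, while the Olig2, Cspg4 and upstream Mbp windows held none. Of all 33469 promoters of this length in the table, 72.1% held at least 1, 38.6% at least 2 and 16.6% at least 3. The number of CpG pairs was 6 for Mag, 13 for the downstream Mbp start, 16 for Olig2, 18 for Cspg4 and 19 for the upstream Mbp start, against a median of 7 over all promoters. The letters in a window do not show binding.

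Depth was 7.23 to 11.4 aligned gigabases per library for experiment 1, 4.36 to 7.20 for experiment 2 and 6.48 to 14.9 for experiment 3, of which 79.5 to 81.3% lay in annotated transcripts. The 16 neuron markers listed for the check of the label were all present and summed to 2829 to 3527 FPKM. Tests were made in 1 limma model of log2(FPKM + 0.5) over all libraries, after scaling by a median-ratio size factor (0.947 to 1.07) and a filter of at least 0.5 FPKM in at least 2 libraries, which left 13999 genes. A gene is called when its p, adjusted over all of these by the Benjamini-Hochberg method, is under 0.05. Since 0.5 is added before the log, the differences understate the change of genes near or under 1 FPKM. Of the members, 8 passed the filter. Pdgfra reached 0.5 FPKM in 0 of 23 libraries and was not tested.

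In the DMSO libraries at 24 h the members spread over a wide range of levels. Olig1 (14.7 ± 3.33 FPKM), Mbp (14.3 ± 1.40) and Cnp (14.2 ± 2.19) stood at the top (SD, n = 2 each). Each was higher in library N5 than in N6, so these SDs hold a shift that the genes share. No order among them is read from it. Olig2 followed at 4.03 ± 0.00502 FPKM, then Mog at 1.24 ± 0.0958 and Sox10 at 1.02 ± 0.0113. Cspg4 had 0.778 ± 0.00921 FPKM, Mag 0.636 ± 0.118 and Pdgfra 0.274 ± 0.00886. The Mag libraries rest on an estimated 131 and 198 reads, and both lay below both Cspg4 libraries. FPKM is a level per length, so these values can be set side by side. Over all 23 libraries the lowest, median and highest FPKM were 8.52, 13.6 and 33.7 for Olig1, 1.47, 3.88 and 6.43 for Olig2, and 0.582, 0.935 and 1.46 for Sox10. Cspg4 ran over 0.285, 0.634 and 0.931 FPKM and Pdgfra over 0.164, 0.273 and 0.337 FPKM. For the myelin genes they were 8.99, 13.1 and 15.8 for Mbp, 10.97, 12.8 and 15.8 for Cnp, 0, 1.09 and 1.31 for Mog, and 0.245, 0.504 and 0.723 for Mag.

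Markers of late oligodendrocytes were near the floor. Opalin, a marker of mature myelinating cells, did not exceed 0.0607 FPKM in any library, and Mal, Ermn and Klk6 each stayed under 0.5 FPKM. In all, 17 of 30 further myelin and mature oligodendrocyte genes passed the filter. Of the 23 progenitor and committed precursor genes found (of 25 listed), 17 passed. Tf, Sirt2, Omg and Qdpr had the highest means of the myelin list and Ptprz1, Cacng4, Sox11 and Fyn of the progenitor list, and neurons or astrocytes express several of these too.

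**Figure D1:**
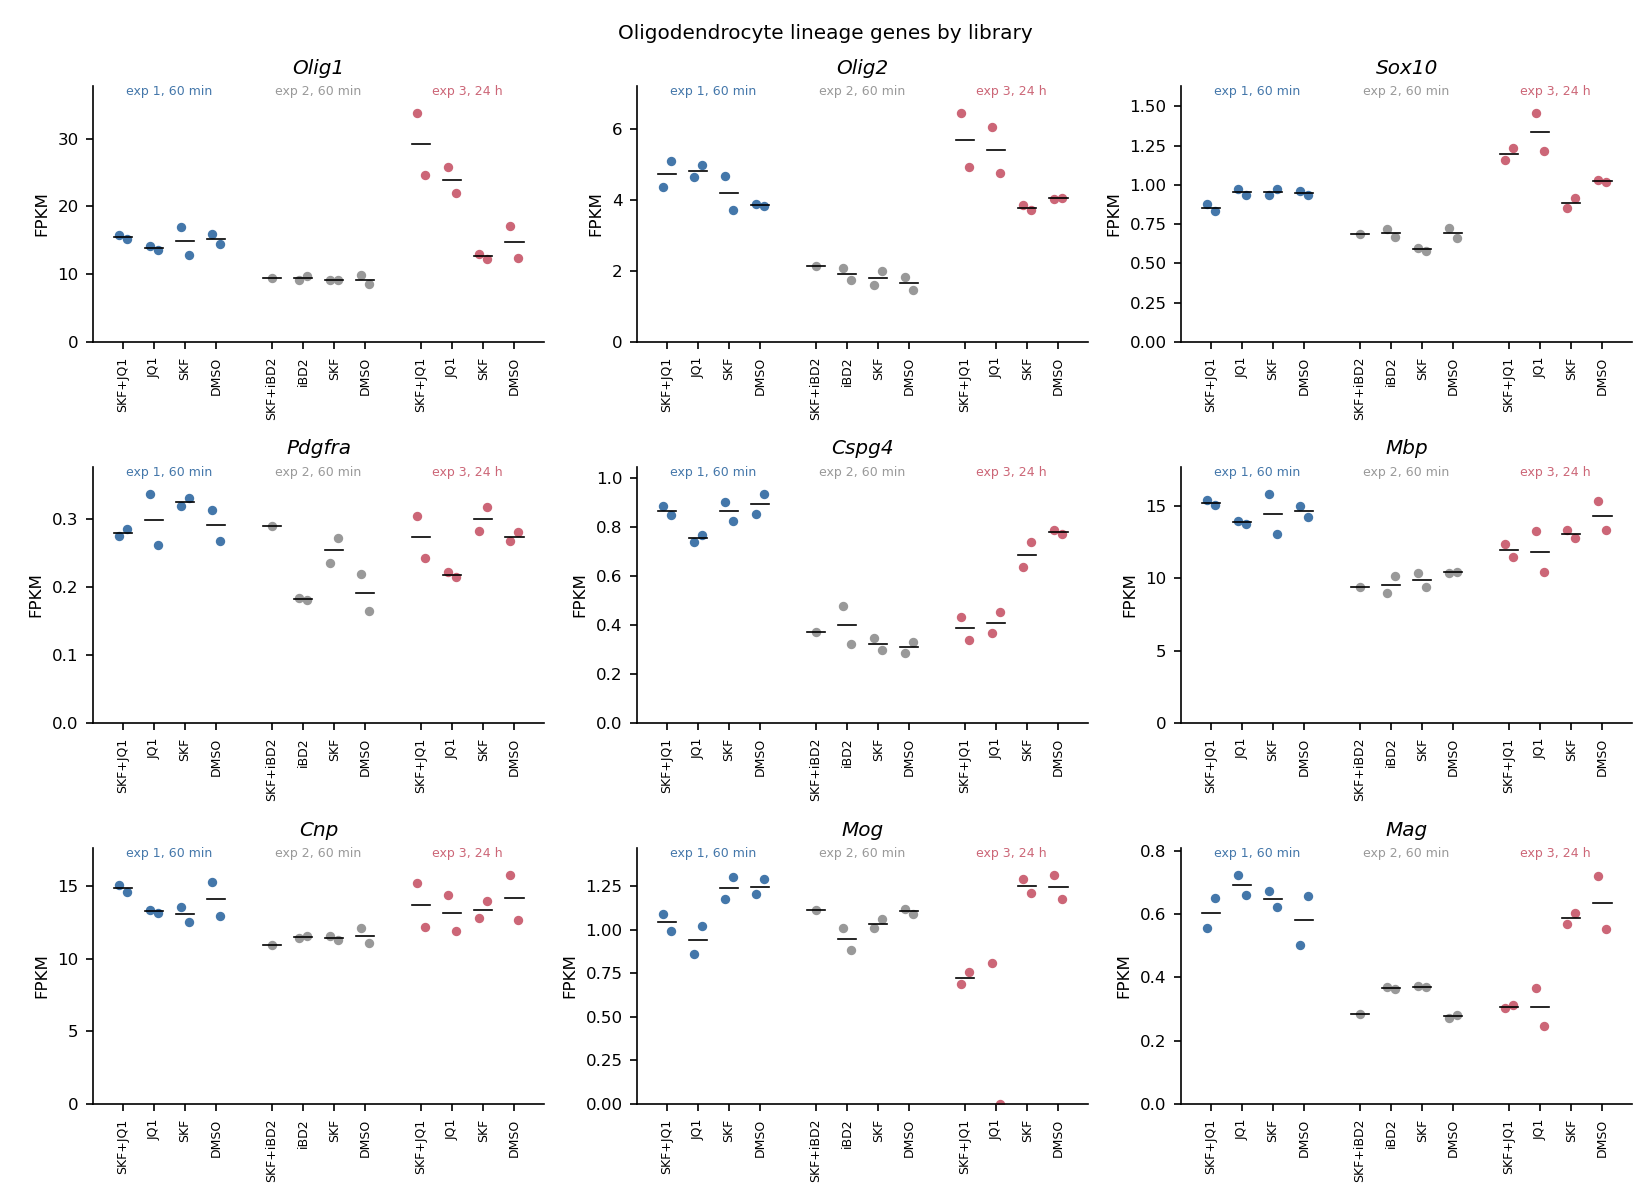
FPKM of each member in every library, by group, with points for libraries and a bar for the group mean (left out where a library is listed at 0). Both JQ1 groups at 24 h lie above their controls for Olig1, Olig2 and Sox10 and below them for Cspg4, Mog and Mag, and the libraries of experiment 2 are low for Olig1, Olig2, Cspg4 and Mbp.

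Experiment 2 stood apart in its levels, whatever the treatment. Olig2 had 1.47 to 2.15 FPKM over its 7 libraries, against 3.71 to 5.07 over the 8 libraries of experiment 1. Cspg4 had 0.285 to 0.475 FPKM in experiment 2 and 0.739 to 0.931 in experiment 1, and Mag 0.273 to 0.372 against 0.504 to 0.723. Olig1, Sox10, Mbp and Cnp also had their libraries of experiment 2 below all those of experiment 1, while Pdgfra and Mog overlapped. Astrocyte markers summed to 281 to 293 FPKM and microglia markers to 67.0 to 80.9 FPKM in experiment 2, against 576 to 757 and 95.4 to 140 FPKM in experiment 1. These are values from separate experiments, so no test was made, and what set the levels cannot be told apart from the experiment. In bulk RNA such as this, fewer cells of a type and less RNA per cell cannot be told apart, here or in any result that follows.

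After 24 h of JQ1 alone, the lineage factors rose while Cspg4, Mag and Mog fell. Of the 8 members tested, 3 rose and 3 fell. The background is wide, since 56.3% of all genes tested were called, 28.0% higher and 28.3% lower with JQ1, and the count of members is to be read against that. With FPKM as deposited, with no size factor, the share of called genes that were higher was 34.3%, against 49.8% with it. The median difference was 0.40 over the 4 progenitor members tested, which joins 0.46 over the 3 lineage factors with -0.44 for Cspg4. It was -0.31 over the 4 myelin members and 0.01 over all genes. Markers of other cells moved in the same libraries: microglia markers summed to 25.3 to 31.6 FPKM with JQ1, against 107 to 132 with DMSO, and cell cycle markers to 70.6 to 74.3 FPKM, against 54.8 to 59.0 with DMSO. Their part in the values of the members was not tested.

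Olig1 had 25.8 and 21.9 FPKM in the JQ1 libraries, against 17.1 and 12.4 FPKM in the DMSO libraries. The groups did not overlap, and the log2 difference was 0.79 ± 0.13 (SE, adjusted p = 0.000123), a ratio of mean FPKM of 1.62. Olig2 had 6.04 and 4.75 FPKM with JQ1, against 4.03 and 4.04 FPKM with DMSO, without overlap. Its log2 difference was 0.46 ± 0.13 (adjusted p = 0.00598). Sox10 had 1.46 and 1.22 FPKM with JQ1, against 1.03 and 1.02 FPKM with DMSO, also without overlap, and differed by 0.34 ± 0.09 (adjusted p = 0.00355). The size of both differences leans on 1 library: without JQ1 replicate N5, Olig2 differed by 0.31 and Sox10 by 0.25. That leaves 1 library in the JQ1 group, so only the size is given.

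Cspg4, the proteoglycan of progenitors, had 0.365 and 0.453 FPKM in the JQ1 libraries, against 0.785 and 0.772 FPKM in the DMSO libraries. Both JQ1 libraries were low, and the mean was 0.525 of the DMSO mean. On the log2 scale it fell by 0.44 ± 0.10 (adjusted p = 0.00165). Pdgfra, the other surface protein, had 0.222 and 0.215 FPKM with JQ1, against 0.268 and 0.281 FPKM with DMSO. The groups did not overlap, and the ratio of mean FPKM was 0.795. With the filter lifted, its log2 difference was -0.08 ± 0.07 (adjusted p = 0.514), with a 95% interval of -0.23 to 0.08. At this level the 0.5 added before the log shrinks the difference.

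Among the myelin genes, Mag, a glycoprotein of the membrane facing the axon, had 0.365 and 0.245 FPKM with JQ1, against 0.720 and 0.553 FPKM with DMSO. The groups did not overlap, and Mag fell by 0.45 ± 0.11 (adjusted p = 0.00194) on the log2 scale. The ratio of mean FPKM was 0.479, and the 0.5 added before the log shrinks the difference. These levels rest on an estimated 58 and 53 reads with JQ1. Mog, a protein of the outer myelin surface, had 0.811 FPKM in the N5 library and was listed at 0 in the N6 library of JQ1, against 1.31 and 1.18 FPKM with DMSO. The log2 difference was -1.07 ± 0.27 (adjusted p = 0.00342), but it was -0.35 without the library at 0, and -1.78 without the other. Each of these leaves 1 library in the JQ1 group, so only the size is given. A value of 0 in 1 library beside at least 0.5 FPKM in all others was found for 7 genes over 6 libraries. Whether the 0 of Mog is a failed estimate was not tested. Zfp57, which overlaps Mog, had 12.1 and 10.8 FPKM with JQ1 and 20.1 and 18.2 FPKM with DMSO (-0.62 ± 0.07, adjusted p = 7.09e-07), and its part in the values of Mog was not tested.

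Mbp, which compacts the myelin sheath, and Cnp, an enzyme of non-compact myelin, were not called. Mbp had 13.2 and 10.4 FPKM with JQ1, against 15.3 and 13.3 FPKM with DMSO. The difference was -0.17 (95% interval -0.36 to 0.01, adjusted p = 0.105). It passed the threshold with FPKM as deposited (-0.27, adjusted p = 0.0310). Without JQ1 replicate N5, which leaves 1 library in the JQ1 group, the Mbp difference was -0.33. Cnp had 14.4 and 11.9 FPKM with JQ1, against 15.8 and 12.6 FPKM with DMSO, with overlapping libraries and an interval of -0.21 to 0.19.

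In the presence of SKF, JQ1 gave the same directions for the members it moved. SKF+JQ1 against SKF at 24 h called 5 of the 8 members tested, 3 higher and 2 lower, beside 56.5% of all genes (28.3% higher and 28.2% lower). This comparison shares no library with that of JQ1 against DMSO. Of the called genes, 50.1% were higher, and 38.1% with FPKM as deposited. Olig1 had 33.7 and 24.6 FPKM with SKF+JQ1, against 13 and 12.2 FPKM with SKF, a log2 difference of 1.24 ± 0.13 (adjusted p = 1.28e-06) and the largest of any member. Olig2 had 6.43 and 4.91 FPKM, against 3.84 and 3.70 FPKM with SKF (0.59 ± 0.13, adjusted p = 0.000916). Sox10 had 1.16 and 1.23 FPKM with SKF+JQ1, against 0.855 and 0.915 FPKM with SKF (0.34 ± 0.09, adjusted p = 0.00292). For all of them both SKF+JQ1 libraries were above both SKF libraries.

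Cspg4 had 0.431 and 0.340 FPKM with SKF+JQ1, against 0.634 and 0.738 FPKM with SKF, and fell by 0.39 ± 0.10 (adjusted p = 0.00451). Mag had 0.303 and 0.312 FPKM with SKF+JQ1, against 0.570 and 0.604 FPKM with SKF, and fell by 0.40 ± 0.11 (adjusted p = 0.00520). Mog had 0.691 and 0.757 FPKM with SKF+JQ1, against 1.29 and 1.21 FPKM with SKF. Its libraries did not overlap either, but the difference of -0.47 ± 0.27 (adjusted p = 0.155) was not called. The SE comes from all groups of the fit, the JQ1 group with its library at 0 included. Without that library the difference was -0.47 (adjusted p = 0.000609), and without the other JQ1 library -0.47 (adjusted p = 0.000653). Mbp (-0.05, 95% interval -0.24 to 0.14) and Cnp (0.10, -0.10 to 0.30) were not called. Pdgfra, with the filter lifted, differed by -0.02 ± 0.07, and its libraries overlapped.

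SKF alone at 24 h called 0 of 8 members in limma, beside 1.49% of all genes. No member had an unadjusted p under 0.05, and limma voom on estimated reads also called 0. The log2 differences ran from -0.19 to 0.01. The interaction asks whether JQ1 acted differently with SKF than without it, and it called 0 of 8 members beside 0.0429% of all genes. The interaction for Olig1 was 0.45 ± 0.19 (limma, adjusted p = 0.854), and 1 member, Olig1, had an unadjusted p under 0.05. Voom called 0 there too. The interaction of Mog was 0.60 (adjusted p = 0.927). It was -0.12 without JQ1 replicate N6, the library listed at 0, and 1.31 without replicate N5. Each of these fits leaves 1 library in the JQ1 group, so only the size is given.

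**Figure D2:**
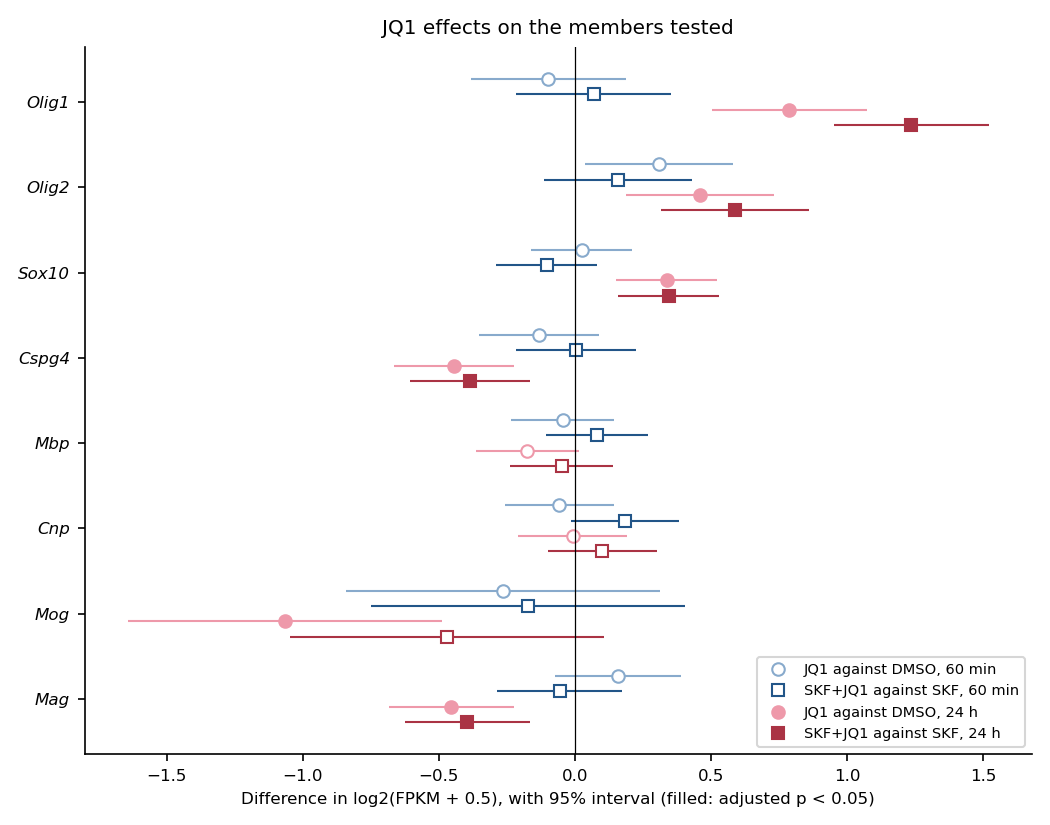
Differences in log2(FPKM + 0.5) made by JQ1 without and with SKF at 60 min and 24 h for the 8 members tested, with 95% intervals, filled where the adjusted p is under 0.05. At 24 h the points of Olig1, Olig2 and Sox10 lie to the right of 0 and those of Cspg4 and Mag to the left, and none is filled at 60 min.

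At 60 min, JQ1 against DMSO called 0 of 8 members beside 4.34% of all genes, and SKF+JQ1 against SKF called 0 of 8 beside 6.49%. Voom called 0 in both. Olig2 came nearest, with 4.64 and 4.98 FPKM with JQ1, against 3.88 and 3.83 FPKM with DMSO. Its libraries did not overlap, and the difference of 0.31 ± 0.13 had an adjusted p of 0.266. That was the 1 member with an unadjusted p under 0.05, against 0 with SKF. Olig1 had 14.2 and 13.6 FPKM with JQ1 and 15.9 and 14.5 FPKM with DMSO, a difference of -0.10 with a 95% interval of -0.38 to 0.19. Mag had 0.723 and 0.661 FPKM with JQ1 and 0.504 and 0.659 FPKM with DMSO (0.16 ± 0.11).

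The effect of JQ1 at 24 h minus that at 60 min, each against the DMSO group of its own experiment, was called for Olig1 (0.89 ± 0.19, adjusted p = 0.00192) and Mag (-0.61 ± 0.15, adjusted p = 0.00529). That is 2 of 8 members beside 36.3% of all genes, 17.1% higher and 19.3% lower. Voom called 5, with Sox10, Cspg4 and Mog beside these, and its own share of all genes is not given here. Of all genes called by limma, 47.0% were higher, and 31.8% with FPKM as deposited. Sox10 differed by 0.31 ± 0.12 (adjusted p = 0.0584) and Cspg4 by -0.31 ± 0.15 (adjusted p = 0.109), both short of the threshold, and Olig2 by 0.15 ± 0.18 (adjusted p = 0.552). Without JQ1 24 h replicate N6, which leaves 1 library in that group, Sox10 differed by 0.40. Mog differed by -0.80 (adjusted p = 0.115), and by -1.52 without replicate N5, which leaves the library listed at 0 as the only one of the JQ1 group. Time and experiment cannot be told apart in this comparison.

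The remaining comparisons at 60 min called 0 of 8 members each, none of them with an unadjusted p under 0.05, and voom called 0 as well. They were SKF against DMSO in experiment 1 (1.71% of all genes called) and in experiment 2 (2.37%), iBD2 against DMSO (0.186%), SKF+iBD2 against SKF (0.0214%), the interactions of SKF with JQ1 (0%, with 453 genes at an unadjusted p under 0.05 and 1 gene called by voom) and with iBD2 (0.0143%), and JQ1's effect minus that of iBD2 (0.921%). The share of called genes that were higher was 87.7% for SKF in experiment 2 and 56.6% for JQ1's effect minus that of iBD2, against 77.3% and 66.7% with FPKM as deposited. For iBD2 the member differences ran from -0.12 to 0.20. Olig2 had 2.07 and 1.75 FPKM with iBD2, against 1.84 and 1.47 FPKM with DMSO, with overlapping libraries and an interval of -0.07 to 0.47. JQ1's effect minus that of iBD2 on Olig2 was 0.11, with an interval of -0.27 to 0.50, which takes in differences as large as the JQ1 effect itself. These compounds were given in separate experiments and the labels give no doses.

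The gene-level value of Mbp joins transcripts from 2 starts, of which the upstream one fell with JQ1 at 24 h and the downstream ones were not called. The Mbp gene has an upstream start, which opens the golli transcripts known also from neurons and immune cells, and a downstream start, from which the classic myelin isoforms are made. In the files 1 transcript of 4 exons (chr18:79326738-79407285) begins upstream, and 4 transcripts begin 79643 bases further on, at position 79406381, and end at 79437310. The RefSeq starts whose promoters are shown above lie 79593 bases apart. Grouping by start was added after the transcript values had been seen. The upstream transcript had 2.63 and 2.52 FPKM with JQ1 at 24 h, against 4.71 and 4.43 FPKM with DMSO. Both JQ1 libraries were low, and it fell by 0.65 ± 0.09 on the log2 scale (adjusted p = 0.000101). With SKF+JQ1 it had 2.13 and 2.58 FPKM, against 4.21 and 4.35 FPKM with SKF (-0.68 ± 0.09, adjusted p = 6.06e-05).

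The downstream transcripts together had 10.6 and 7.93 FPKM with JQ1, against 10.6 and 8.89 FPKM with DMSO (0.01 ± 0.13, adjusted p = 0.982). With SKF+JQ1 they had 10.3 and 8.91 FPKM, against 9.10 and 8.41 FPKM with SKF (0.19 ± 0.13, adjusted p = 0.271). Of all 17352 transcript groups that share a start, 42.0% were called with JQ1 and 42.0% with SKF+JQ1. The difference between the starts was not itself tested. The upstream transcript made up 22.0 ± 2.99% of Mbp FPKM with JQ1 and 32.0 ± 1.78% with DMSO, and 19.8 ± 3.72% with SKF+JQ1 and 32.9 ± 1.74% with SKF (SD, n = 2 each). At 60 min it differed by -0.18 ± 0.09 (adjusted p = 0.510) with JQ1, and its effect at 24 h minus 60 min was -0.47 ± 0.13 (adjusted p = 0.0213). In experiment 2 the upstream transcript held 45.0 to 51.4% of Mbp FPKM, against 28.3 to 37.1% in experiment 1. Its level there was 4.50 to 5.29 FPKM, within the 4.26 to 5.56 FPKM of experiment 1, while the downstream transcripts had 4.49 to 5.70 FPKM against 8.51 to 11.1. How the authors' program split reads among transcripts that share exons was not tested, and the 4 downstream transcripts swapped shares between replicates.

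**Figure D3:**
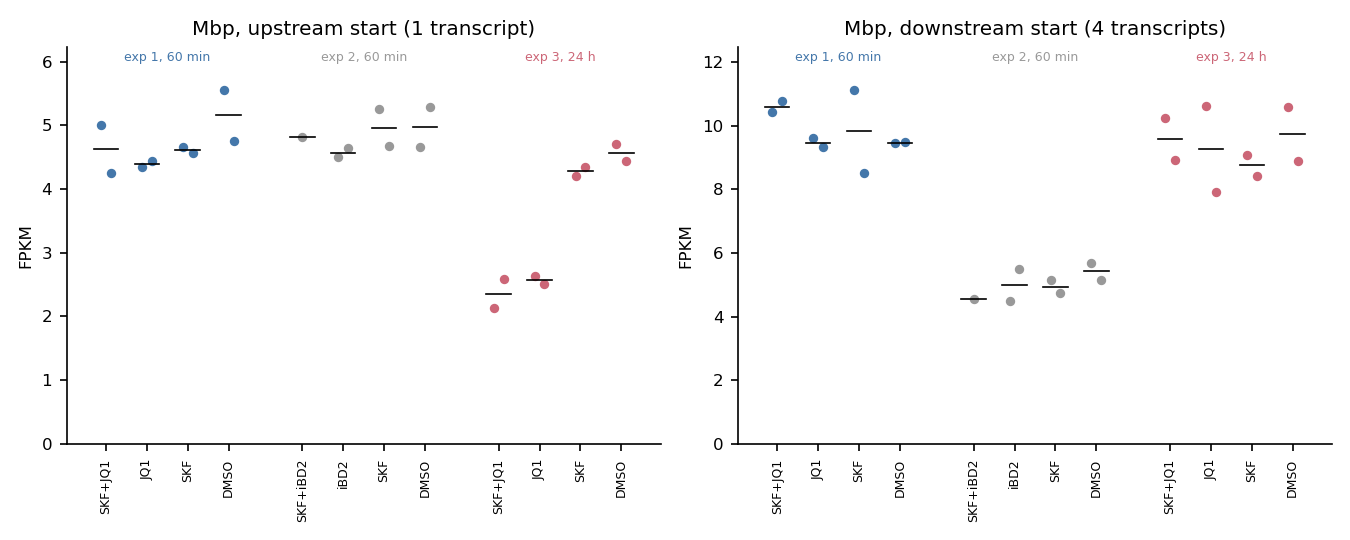
FPKM of Mbp transcripts from the upstream and the downstream annotated start in each library, with a bar for the group mean. At 24 h the 4 libraries with JQ1 sit between 2.13 and 2.63 FPKM for the upstream start, below all others, and overlap their controls for the downstream start.

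The counts of other genes of the lineage are to be read beside the shares of all genes called, 28.0% higher and 28.3% lower with JQ1 and 28.3% higher and 28.2% lower with SKF+JQ1 against SKF. Of the 17 further progenitor genes tested, 0 rose and 8 fell with JQ1 at 24 h (median -0.10), and 2 rose and 7 fell with SKF+JQ1 against SKF (median -0.08). Megf11 had 3.34 to 3.86 FPKM with JQ1, against 7.43 to 7.69 with DMSO (-0.89 ± 0.08, adjusted p = 1.26e-07). Cacng4, an auxiliary subunit of AMPA receptors, had 46.0 to 46.7 FPKM against 69.7 to 73.7 (-0.53 ± 0.05, adjusted p = 3.98e-07). Sox5, a transcription factor of progenitors and some neurons, and Tnr, a matrix glycoprotein, fell by 0.61 ± 0.08 and by 0.66 ± 0.11. With SKF, Cacng4, Megf11, Sox5 and Tnr again had the smallest p of the list and fell by 0.57, 0.85, 0.64 and 0.69.

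Of the 17 further myelin genes tested, 3 rose and 8 fell with JQ1 (median -0.40), and 2 rose and 5 fell with SKF+JQ1 against SKF (median -0.09), the lower count near the share over all genes. Myrf, the transcription factor that turns on myelin genes, had 0.545 to 0.579 FPKM with JQ1, against 1.45 to 1.59 with DMSO (-0.87 ± 0.10, adjusted p = 1.11e-06). Tspan2, a tetraspanin of oligodendrocytes, fell by 0.73 ± 0.05 and Omg, a myelin glycoprotein that neurons also make, by 0.70 ± 0.09. Evi2a had 0.229 to 0.246 FPKM with JQ1, against 1.04 to 1.15 with DMSO (-1.07 ± 0.10). With SKF present, the differences of Tspan2, Omg, Evi2a and Myrf were -0.97, -0.98, -0.997 and -0.62, all called.

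Among 17 growth factor and receptor genes tested, 2 rose and 9 fell with JQ1 (median -0.16), and 4 rose and 6 fell with SKF+JQ1 against SKF (median -0.16), the second pair near the share over all genes. The ligands Igf1, which microglia also make, Pdgfb and Pdgfc fell by 0.88 ± 0.08, 0.96 ± 0.11 and 1.17 ± 0.14, and the receptor Igf1r rose by 0.44 ± 0.08 (adjusted p = 0.000111). With SKF, Igf1 had 3.25 to 3.33 FPKM with SKF+JQ1, against 11.3 to 12.5 with SKF alone (-1.64 ± 0.08), Pdgfb differed by -1.14, Igf1r by 0.57 and Fgfr1 by 0.78. Among 18 regulators of differentiation, not all of which restrain it, 3 rose and 5 fell (median -0.07). With SKF 4 rose and 4 fell (median -0.02), and the counts were near the share over all genes. Id2, an inhibitor of helix-loop-helix factors, fell by 0.64 ± 0.06, the ligands Wnt7a and Dll1 by 0.57 ± 0.07 and 0.52 ± 0.08, and Lingo1 by 0.57 ± 0.10. With SKF, Id2, Dll1 and Wnt7a fell by 0.76, 0.79 and 0.60, and Jag1, a Notch ligand, rose by 0.87 ± 0.10.

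**Figure D4:**
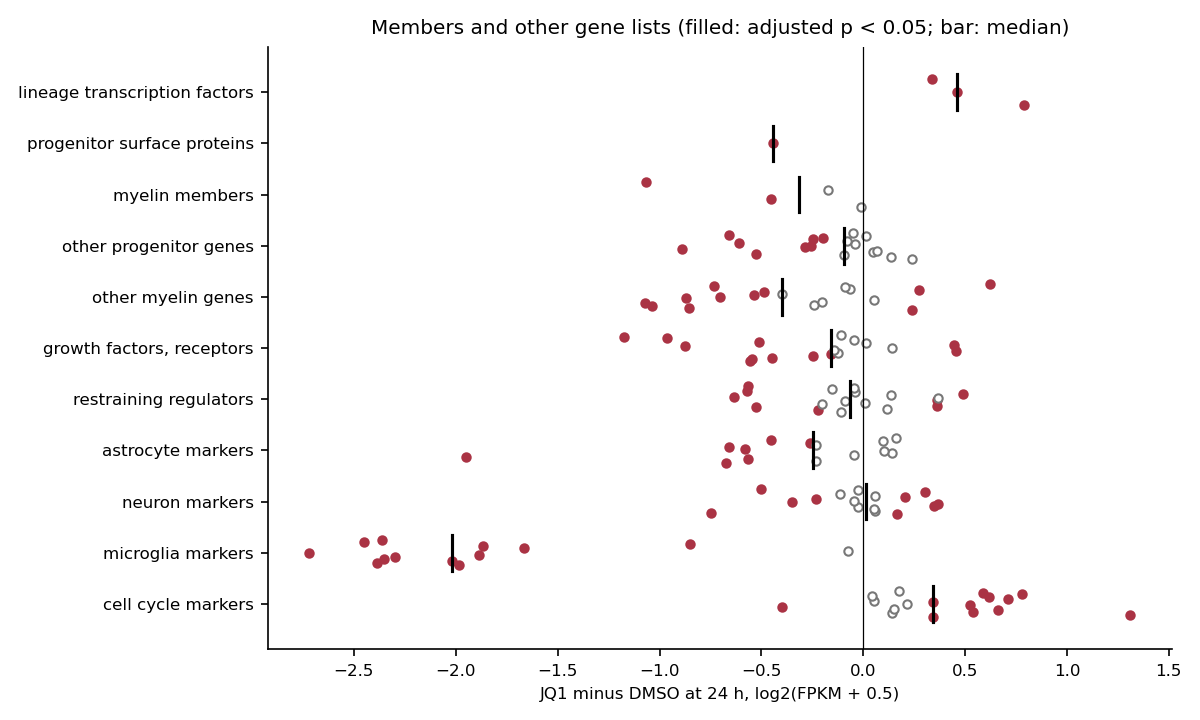
Difference of JQ1 minus DMSO at 24 h in log2(FPKM + 0.5) for each tested gene of the members and of 8 other lists, with a bar at each median and filled points where the adjusted p is under 0.05. The 3 lineage factors lie right of 0, microglia markers lie near -2.02 at the median, and cell cycle markers lie mostly right of 0. The list labelled restraining regulators also holds genes that do not restrain differentiation.

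Counts of markers of other cells at 24 h are to be read beside the same shares. Of 13 microglia markers, 0 rose and 12 fell with JQ1 (median -2.02), and their summed level was 25.3 to 31.6 FPKM with JQ1, against 107 to 132 with DMSO. With SKF+JQ1 the sum was 15.3 to 16.3 FPKM, against 54.2 to 70.0 with SKF, with 1 higher and 12 lower. SKF alone against DMSO had 0 higher and 10 lower (median -0.96), with sums of 54.2 to 70.0 FPKM against 107 to 132. Of 14 astrocyte markers tested, 0 rose and 7 fell with JQ1, with sums of 524 to 600 FPKM against 674 to 811 with DMSO, and 4 rose and 4 fell with SKF+JQ1 against SKF, with sums of 560 to 714 against 639 to 674 FPKM. Of 16 neuron markers 5 rose and 4 fell with JQ1 and 5 rose and 5 fell with SKF+JQ1, with sums of 3001 to 3147 against 3246 to 3445 FPKM and 2829 to 3094 against 3280 to 3348 FPKM. These neuron counts are near the shares over all genes.

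Of 17 cell cycle markers tested, 10 rose and 1 fell with JQ1 (median 0.34, sums of 70.6 to 74.3 against 54.8 to 59.0 FPKM), and 12 rose and 0 fell with SKF+JQ1 (median 0.40, sums of 74.5 to 80.2 against 56.0 to 56.9 FPKM). Fibroblast and meningeal markers summed to 38.4 to 41.1 FPKM with JQ1, against 54.2 to 57.6 with DMSO (0 rose and 4 fell of 7), and to 32.6 to 33.2 with SKF+JQ1 against 50.7 to 51.4 with SKF (1 rose and 3 fell). Most of that sum was Thy1, which neurons also express and which had 24.7 to 31.4 FPKM with JQ1, against 36.3 to 44.9 with DMSO. Its call with JQ1 was lost in 14 of 23 fits with 1 library left out. Without Thy1 the sums were 13.7 and 9.74 FPKM with JQ1, against 17.8 and 12.7 with DMSO, and 17.1 and 11.2 FPKM with SKF+JQ1, against 13 and 12.7 with SKF, and the groups overlapped. Pericyte and smooth muscle markers, of which 4 were tested, had 0 higher and 2 lower with JQ1 and sums of 11.9 to 15.3 FPKM against 15.1 to 18.4 with DMSO. With SKF+JQ1 they had 1 higher and 2 lower and sums of 12 to 16.7 FPKM, against 12.5 to 12.9 with SKF. Endothelial markers summed to no more than 1.04 FPKM in these groups, with 1 gene tested and 0 called. Of 4 Schwann cell markers tested, 1 fell in each comparison, Pmp2 (-1.19 with JQ1 and -1.03 with SKF+JQ1). For these lists, too, the part in the values of the members was not tested. P2ry12, a defining microglia marker, had 0.0491 to 0.0899 FPKM with JQ1, against 1.57 to 1.67 with DMSO, and was listed at 0 in SKF+JQ1 replicate N6.

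Over the 23 libraries, after centring each experiment on its own mean, the log2 values of Olig1 correlated with those of Olig2 at r = 0.79 and of Sox10 at r = 0.73, and with those of Cspg4 at r = -0.75 and of Mag at r = -0.72. Cspg4 and Mag correlated at r = 0.70. Mbp and Olig1 correlated at r = -0.11. The points share their treatments and libraries, so these values describe the set and carry no test. The genes most like Olig2 in this measure were Mt1, a metallothionein (r = 0.92), Evi5 (r = 0.89) and AABR07042892.1 (r = 0.89). Those most like Mbp were Slc39a1, a zinc transporter (r = 0.85), Paqr7 (r = 0.84) and Ptgr2 (r = 0.82).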

How the data were processed

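For every library the authors deposited StringTie output that lists 41078 transcripts with FPKM values. The deposited coverage (average read depth per transcript base) was used here for sequencing depth and for estimated reads of 101 bases. The tools named, per the submitters' processing notes, are STAR, StringTie, DESeq2, FastQC and Trim Galore, without versions, on build Rnor_6.0.

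FPKM were summed by gene, filtered (also for a longest transcript of at least 200 nucleotides), scaled and fitted with limma 3.58.1 under R 4.3.3, with robust and trend fitting, 1 mean per group and 11 residual degrees of freedom. Only 1 SKF+iBD2 library entered, so its variance was taken from the other groups. There were 14 two-sided comparisons. The step was tested on simulated data.

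The members, lists and tests were chosen with earlier results of these data known. Beside the members, up to 4 called genes by smallest p were named per lineage list, and the 3 most alike for Olig2 and Mbp. The 6 genes with the highest levels, late markers near the floor, Zfp57, Pmp2, Thy1 and P2ry12 were named after their values were seen. Alternatives were pseudocounts of 0.1 and 1, FPKM as deposited, no filter, limma voom on estimated reads, a replicate block, each experiment alone, and each library left out. The fibroblast sum without Thy1 was added after seeing the data.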

Additional observations from a re-analysis of the deposited data

Results flagged for a closer look

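The JQ1 effect differed between times, by a test of the difference itself, for Olig1 and for Mag. For Olig1 the effect at 24 h minus that at 60 min was 0.885 on the log2 scale, with an effect of 0.79 at 24 h and of -0.10 at 60 min, and both JQ1 libraries were above both DMSO libraries at 24 h. For Mag it was -0.613, with an effect of -0.45 at 24 h and of 0.16 at 60 min, and both JQ1 libraries were below both DMSO libraries at 24 h. The times come from separate experiments, so time and experiment cannot be told apart. With 1 or 2 libraries a group, no library could be tested for standing apart from its group.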

How the results depend on the processing

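JQ1 against DMSO at 24 h called 5 to 7 members over all alternatives (6 as reported), and SKF+JQ1 against SKF 5 to 6 (5 as reported). Mog was not called with each experiment fitted alone (adjusted p = 0.0606). The effect at 24 h minus 60 min called 5 members with limma voom on estimated reads, against 2, and 2 to 3 with 1 library left out. The SKF by JQ1 interaction at 24 h called 0, setting aside the fit without JQ1 replicate N5. That fit leaves the library with Mog listed at 0 as the only one of the JQ1 group. Every other comparison called 0 members under each alternative. The shares of all genes called under the same alternatives are not given beside these member counts. Some fits with 1 library left out leave 1 library in a group. Olig1, Cspg4 and Mag kept their directions and calls at 24 h in both JQ1 comparisons under every alternative run, with Olig1 at 0.60 to 0.98 and 1.03 to 1.44 with 1 library left out. With the replicate number as a replicate block, the 24 h comparisons called 6 and 5 members, and no member's call changed. Deviations of same-numbered libraries correlated at -0.27 to 0.37, -0.12 to 0.34 and -0.23 to 0.37 in experiments 1 to 3. That does not settle whether the numbers pair the libraries. Olig1 and Mbp had higher FPKM in N5 than in N6 in every group of experiments 1 and 3, and no other member did.

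Values near 0 turned sign: Mbp with SKF+JQ1 at 24 h was 0.0244 with voom, and with FPKM as deposited Cnp was -0.0197 for 24 h minus 60 min and the downstream Mbp transcripts -0.0774 with JQ1 at 24 h. With 1 library left out, Cnp ran from -0.13 to 0.12 with JQ1 and from -0.0324 to 0.23 with SKF+JQ1 at 24 h, from -0.14 to 0.0221 with JQ1 at 60 min, and from -0.0753 to 0.17 for 24 h minus 60 min. For that last comparison Mbp ran from -0.29 to 0.0298 and Olig2 from -0.00143 to 0.30. The downstream Mbp transcripts ran from -0.19 to 0.20 with JQ1 at 24 h. With SKF+JQ1 at 60 min Olig1 ran from -0.0892 to 0.23, Cspg4 from -0.0122 to 0.0215, Mbp from -0.0153 to 0.18 and Mag from -0.13 to 0.0118. The interaction of Mog ran from -0.12 to 1.31. The cause of these turns was not tested.

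Counts over all genes moved by over 1.5 times mainly where few were called. With each experiment fitted alone, which leaves fewer libraries, SKF at 24 h called 88 genes against 208, its interaction with JQ1 1 against 6, JQ1 at 60 min 386 against 607, SKF in experiment 1 155 against 240 and SKF+iBD2 11 against 3. With FPKM as deposited, iBD2 called 9 genes against 26 (4 with voom), and the interactions at 60 min 1 each, against 0 with JQ1 (1 with voom) and 2 with iBD2. With no filter, the interactions called 27 (JQ1 at 24 h), 6 (JQ1 at 60 min) and 145 (iBD2), and SKF+iBD2 called 202. Mag rests on an estimated 28 to 198 reads a library, and 2 libraries a group limit every comparison here.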
